A study of Mus musculus with 10 samples.

Results

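The mitochondrial ribosomal protein genes of mouse pancreatic tumours were examined with and without doxycycline. They were chosen by name, as every gene symbol that starts with Mrpl or Mrps followed by a number. This gave 77 genes of the 23924 usable symbols in each of 2 expression tables, 48 named Mrpl for the large subunit and 29 named Mrps for the small subunit. No measured value entered the rule.

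Mitochondria have their own ribosome, which translates the few messages of the mitochondrial genome, all of them for subunits of the respiratory chain and the ATP synthase. Its ribosomal RNA is transcribed inside the organelle, while every protein of it is encoded in the nucleus, made in the cytosol and imported. Some of these proteins belong to families that bacterial ribosomes share, and others were added during the evolution of mitochondria. MYC is known in many cell types as an activator of genes for ribosomes and for mitochondria.

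The tumours grew orthotopically, that is in the pancreas, in athymic nude mice, a strain that lacks a thymus and so most T cells but keeps B cells, macrophages and other host cells. All were transplants of 1 of 2 tumour models that the labels call KrasT and MycT. Mice of the doxycycline groups drank doxycycline at 100 ug/ml with 2.5% sucrose for 2 weeks, and mice of the untreated groups did not. There were 3 doxycycline and 3 untreated KrasT tumours, and 2 doxycycline and 2 untreated MycT tumours. The drug controls tetracycline-dependent transgenes, and the study is about tumours that have lost the activity of their oncogene. How these transgenes were built and in which cells they are active is not in the labels, nor is whether tumours of 1 group came from the same donor tumour, so p-values measure the spread between these tumours. No sucrose is named for the untreated mice. Sucrose, the drug itself and the transgene cannot be told apart as sources of a change.

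Values were FPKM, fragments counted per gene length and per mapped fragments of a library, which can be compared between genes because they are per length. Read totals are unknown. Total FPKM of a library was 513949 to 569272 in KrasT doxycycline against 789672 to 1018970 in KrasT untreated, and 546008 to 557227 in MycT doxycycline against 1126800 to 1517330 in MycT untreated. Relative depth was estimated from the most common ratio of very low values between a library and 1 untreated library of the same table. It was 0.758 to 1.18 in KrasT and 0.624 to 1.0 in MycT, where 1 is the depth of that untreated library. None of the 77 genes was at 0 in any library, and the lowest value of any was 3.35 FPKM. The Myc row had 9.54 and 8.98 FPKM in doxycycline MycT tumours, against 0.398 and 2.85 FPKM in untreated MycT tumours. The labels do not say from which species the MYC transgene comes or which part of the row it shares, so the Myc row is no check of the labels. Among the libraries, the first untreated KrasT tumour stood apart, with a correlation of 0.823 and 0.839 to the other untreated KrasT tumours, which correlated at 0.966 with each other (log2 values over all tested genes). Rn45s, the precursor of cytosolic ribosomal RNA, stood at 17239 FPKM in the first doxycycline KrasT tumour and at 20880 FPKM in the second doxycycline MycT tumour, and at 2231 FPKM or less in the other 8 libraries.

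All 77 genes passed the filter on low values in both tables. Summed over the 77 genes, the level was 2407, 3113 and 3098 FPKM in doxycycline KrasT tumours, against 6590, 4305 and 3844 FPKM in untreated KrasT tumours. In MycT it was 3448 and 3051 FPKM in doxycycline tumours, against 8232 and 11033 FPKM in untreated tumours. Every doxycycline sum was thus below every untreated sum of its model. The median gene showed the same order, at 22.1, 30.2 and 26.9 FPKM in doxycycline KrasT tumours against 49.7, 39.1 and 34.1 FPKM in untreated ones, and at 27.6 and 28.1 FPKM in doxycycline MycT tumours against 67.1 and 75.7 FPKM in untreated ones. The 2 tables were made separately, so levels are not compared between models. As a share of the total FPKM of the library, the 77 genes made up 0.428%, 0.606% and 0.544% in doxycycline KrasT tumours and 0.647%, 0.486% and 0.487% in untreated KrasT tumours, which overlap. The share was 0.619% and 0.559% in doxycycline MycT tumours and 0.731% and 0.727% in untreated MycT tumours, which do not overlap. RNA came from whole tissue, where fewer cells of a type and less RNA per cell cannot be told apart.

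**Figure D1:**
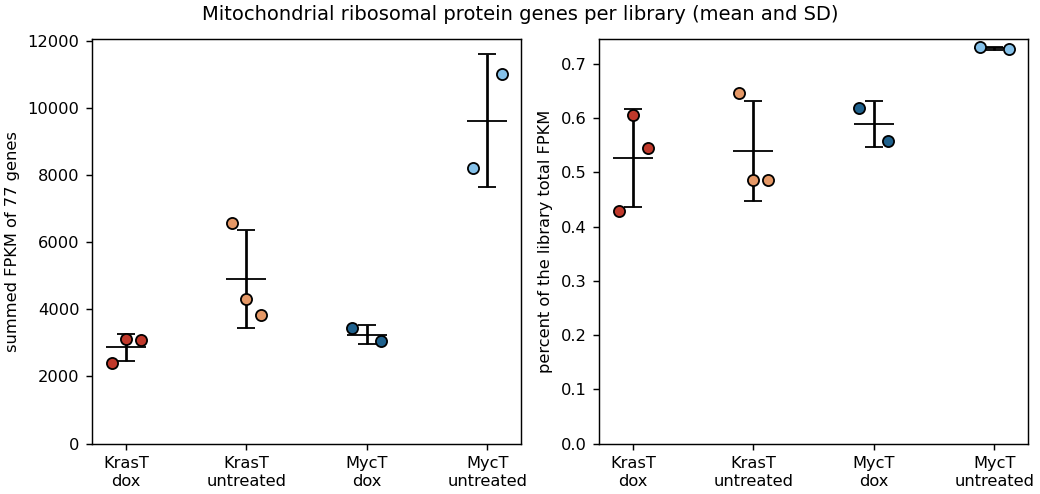
Summed FPKM of the 77 genes in each library (left) and their share of the library's total FPKM in percent (right), by group. Points are libraries, horizontal bars are means and vertical bars are SD (n = 3, 3, 2 and 2). In FPKM the doxycycline libraries lie at 2407 to 3448 and the untreated ones at 3844 to 11033, while the shares of the KrasT groups overlap.

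The promoters of the genes at the ends of the range of change are shown because these genes are described below by name. They are the 2 genes of most negative change and the 1 of most positive change in each model that have an entry in the promoter table. Each is 1 window from 250 bases before to 50 after an annotated start, from RefSeq on GRCm38.p6, printed 5′ to 3′ on the gene's strand. Capitals mark matches, on either strand, to 6 motifs. These were CACGTG, the E-box bound by MYC and MAX; the core of the NRF1 site, a palindrome of 10 letters; CCGGAAG, of ETS family factors such as GABPA; GGGCGG, the SP1 box; CCAAT, the NF-Y box; and AAGATGGC, the YY1 site. Mrps6 lies at chr16:92058086-92058385 on the plus strand, Mrps10 at chr17:47368947-47369246 on the plus strand, Mrpl48 at chr7:100608252-100608551 on the minus strand, Mrpl12 at chr11:120484387-120484686 on the plus strand, Mrpl57 at chr14:57825989-57826288 on the plus strand and Mrps25 at chr6:92183974-92184273 on the minus strand. For Mrpl48 the table holds 4 windows, of which the most upstream is printed.
Mrps6: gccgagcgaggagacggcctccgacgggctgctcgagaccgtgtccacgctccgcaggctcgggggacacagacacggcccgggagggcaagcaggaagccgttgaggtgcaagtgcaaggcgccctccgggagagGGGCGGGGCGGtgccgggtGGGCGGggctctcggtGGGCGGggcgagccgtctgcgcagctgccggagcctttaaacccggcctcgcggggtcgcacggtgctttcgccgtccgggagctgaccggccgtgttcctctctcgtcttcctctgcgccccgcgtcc
Mrps10: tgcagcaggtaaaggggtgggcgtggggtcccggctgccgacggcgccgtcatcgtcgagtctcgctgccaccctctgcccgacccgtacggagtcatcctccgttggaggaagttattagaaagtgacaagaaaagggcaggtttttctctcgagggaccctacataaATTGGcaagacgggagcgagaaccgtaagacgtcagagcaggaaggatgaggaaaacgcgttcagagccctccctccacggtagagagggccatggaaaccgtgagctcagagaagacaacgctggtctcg
Mrpl48: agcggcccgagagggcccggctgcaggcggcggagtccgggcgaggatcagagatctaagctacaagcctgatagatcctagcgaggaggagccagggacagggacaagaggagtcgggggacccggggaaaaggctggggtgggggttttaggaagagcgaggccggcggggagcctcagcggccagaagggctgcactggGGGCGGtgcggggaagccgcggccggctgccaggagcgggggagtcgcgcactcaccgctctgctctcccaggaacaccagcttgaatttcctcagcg
Mrpl12: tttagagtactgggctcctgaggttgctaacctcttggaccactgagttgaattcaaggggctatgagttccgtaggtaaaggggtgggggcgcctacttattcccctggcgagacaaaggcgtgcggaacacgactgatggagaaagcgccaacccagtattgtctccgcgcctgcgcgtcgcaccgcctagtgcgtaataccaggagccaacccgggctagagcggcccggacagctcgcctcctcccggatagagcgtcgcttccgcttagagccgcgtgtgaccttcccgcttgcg
Mrpl57: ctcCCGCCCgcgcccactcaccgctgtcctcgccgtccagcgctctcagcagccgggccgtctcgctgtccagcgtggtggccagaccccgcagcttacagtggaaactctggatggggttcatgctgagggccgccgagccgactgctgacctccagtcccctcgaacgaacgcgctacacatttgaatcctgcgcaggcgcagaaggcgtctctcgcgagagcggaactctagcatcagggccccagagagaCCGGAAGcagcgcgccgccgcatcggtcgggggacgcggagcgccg
Mrps25: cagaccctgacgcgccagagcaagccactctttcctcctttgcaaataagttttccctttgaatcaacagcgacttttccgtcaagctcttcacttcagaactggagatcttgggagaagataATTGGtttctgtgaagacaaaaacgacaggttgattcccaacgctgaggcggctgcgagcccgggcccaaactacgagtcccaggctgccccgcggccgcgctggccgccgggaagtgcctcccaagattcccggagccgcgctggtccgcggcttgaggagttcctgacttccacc
Mrps6 holds 4 matches to GGGCGG, in part overlapping, Mrps10 and Mrps25 hold 1 CCAAT each, Mrpl48 holds 1 GGGCGG in this window, and Mrpl57 holds 1 CCGGAAG and 1 GGGCGG. No match to the 6 motifs stands in the printed Mrpl12 window.

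Windows were in the table for 68 of the 77 genes, 74 windows in all. CCGGAAG stood in 33.8% of them, against 8.86% of all 32851 windows and 16.2% of the 12828 windows of genes tested in either model. AAGATGGC stood in 16.2%, against 2.75% of all windows and 4.11% of windows of tested genes. The NRF1 core stood in 4.05%, against 0.971% and 1.92%. Against windows of tested genes, CACGTG stood in 9.46% against 9.57%, GGGCGG in 52.7% against 60.8% and CCAAT in 40.5% against 37.3%. CCGGAAG and AAGATGGC can share 3 letters, and the run that joins them stood in 0 of the 74 windows. The 5 genes with CACGTG (Mrpl2, Mrpl20, Mrpl36, Mrpl37 and Mrps18c) had a median log2 change of -1.22 in MycT, against -1.44 for the 63 without it, and -0.88 in KrasT, against -0.66. A match of letters is not a site, and these medians are descriptions.

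In KrasT tumours, 73 of the 77 genes had a negative log2 change and 4 a positive one. The median change, on the log2(FPKM + 1) scale used for all changes here, was -0.66, with quartiles of -0.94 and -0.39. Over all 12696 genes tested the median was -0.10. In all, 11 genes passed the limma test at a Benjamini-Hochberg adjusted p under 0.05, all of them lower after doxycycline. That is 14.3% of the 77, where 8.25% of all tested genes were called lower and 8.46% higher. At an unadjusted p under 0.05, 38 genes were lower (49.4%, against 18.7% of all genes) and 0 were higher (15.2% of all genes). In 50 genes every doxycycline tumour lay below every untreated tumour (64.9%, against 23.0% of all genes). An exact permutation test of 1 gene with 3 tumours against 3 cannot go below a p of 0.1, so calls rest on the spread that limma shares across genes.

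Mrps6, which binds ribosomal RNA at the platform of the small subunit, had the most negative change of the 77 genes in KrasT. It had 27.2, 32.0 and 48.9 FPKM in doxycycline tumours, against 198, 118 and 104 FPKM in untreated tumours, which gave a log2 change of -1.92 ± 0.35 (here and below the error of a change is its SE; limma adjusted p = 0.0182). The groups did not overlap. On the GRCm38 annotation its exons share 159 bases with those of Slc5a3 on the same strand, and Slc5a3 was at 2.99 FPKM or less in every library. Mrps10, a protein of the small subunit head from a family shared with bacteria, had 15.6, 23.9 and 20.0 FPKM in doxycycline tumours, against 69.8, 63.7 and 37.8 FPKM in untreated tumours, a change of -1.45 ± 0.32 (limma adjusted p = 0.0280). Mrps23, a small subunit protein with no bacterial relative, had 24.7, 32.8 and 30.6 FPKM in doxycycline tumours, against 72.1, 55.6 and 63.2 FPKM in untreated tumours, a change of -1.09 ± 0.23 (limma adjusted p = 0.0268). In both genes the groups were apart.

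Of the large subunit, Mrpl20, a protein that binds ribosomal RNA early in assembly in bacteria, fell most among those called. It had 56.9, 64.6 and 63.1 FPKM in doxycycline KrasT tumours, against 195, 131 and 127 FPKM in untreated ones (log2 change -1.26 ± 0.25, limma adjusted p = 0.0229). Mrps30 carries a small subunit name but is a protein of the large subunit in the mammalian ribosome. It had 13.8, 15.4 and 12.8 FPKM in doxycycline tumours, against 37.8, 24.5 and 30.9 FPKM in untreated tumours (-1.08 ± 0.25, limma adjusted p = 0.0332). Mrpl57, a small protein added in mitochondria, had 6.36, 9.57 and 8.84 FPKM in doxycycline tumours, against 22.6, 17.8 and 14.9 FPKM in untreated tumours (-1.07 ± 0.28, limma adjusted p = 0.0442). The other called genes were Mrps18b, Mrps18c, Mrpl40, Mrpl21 and Mrpl2, with changes from -1.06 to -0.88. Mrpl2, whose bacterial relative sits near the peptidyl transferase centre, had 32.0, 40.8 and 34.1 FPKM in doxycycline tumours, against 66.6, 66.3 and 65.7 FPKM in untreated tumours, which were nearly equal. Mrpl32 and Mrpl53 had changes as negative as these without passing the test, at -1.26 ± 0.35 (limma adjusted p = 0.0510) and -1.09 ± 0.48 (limma adjusted p = 0.158).

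The 11 calls were lost in 5 of the 6 fits that leave out a library. Each was also called in the fit without the first untreated KrasT tumour, where 16 of the 77 genes were called, and 0 of the 77 were called when any other KrasT library was left out. The signs of the 11 were the same in all 6 fits. How many of all genes were called in these fits is not given here, so the counts of 0 and 16 stand without that share. The joint fit of both tables called 9 of the 11, without Mrpl2 (limma adjusted p = 0.0515) and Mrps18c (limma adjusted p = 0.0618), and the fit with no filter on low values called 10, without Mrpl57. Without the first doxycycline KrasT tumour, the one with high Rn45s, the 77 genes had a median change of -0.59, and without the first untreated KrasT tumour of -0.53.

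The 4 genes of positive change in KrasT were Mrpl48 (0.22 ± 0.36), Mrpl42 (0.17 ± 0.35), Mrpl36 (0.15 ± 0.50) and Mrpl49 (0.08 ± 0.42), and none passed the test. On the GRCm38 annotation, Mrpl48 shares 403 exonic bases with Rab6a, Mrpl36 30 with Ndufs6 and Mrpl49 91 with Syvn1. These overlaps are on opposite strands, and whether counting used strand is not stated. Mrpl48 had 42.5, 56.5 and 55.6 FPKM in doxycycline KrasT tumours, against 73.3, 32.5 and 34.6 FPKM in untreated ones. Mrpl36, whose bacterial relative is among the smallest ribosomal proteins, had 34.7, 33.2 and 42.1 FPKM in doxycycline tumours, against 60.3, 39.9 and 14.3 FPKM in untreated tumours. In all 4 the untreated tumours spread widely around the doxycycline ones, and in all but Mrpl48 the sign turned when 1 library was left out. Mrps25, a small subunit protein, had 10.2, 10.3 and 11.2 FPKM in doxycycline KrasT tumours, against 13.5, 10.02 and 8.62 FPKM in untreated ones.

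In MycT tumours all 77 genes had a negative change. The median was -1.44, with quartiles of -1.85 and -1.12 and the whole range from -2.70 to -0.54, and over all 12834 genes tested the median was 0.04. In 74 genes both doxycycline tumours lay below both untreated tumours (96.1%, against 32.8% of all tested genes). With 2 tumours a group, limma called 0 of the 77 at an adjusted p under 0.05, where it called 0.0312% of all genes lower and 0.00779% higher. At an unadjusted p under 0.05 it had 59 of the 77 lower (76.6%, against 17.6% of all genes) and 0 higher (15.7% of all genes), and the smallest adjusted p among them was 0.0638. A joint fit of both tables, in which all 4 groups share 1 estimate of the spread, called 53 of the 77 lower in MycT, where it called 12.3% of 12073 genes. The same joint fit called 19 of the 77 lower in KrasT, against 9.09% of genes. An exact permutation test of 1 gene cannot go below a p of 0.333 here. The median was -1.37 without the second doxycycline tumour, the one of high Rn45s. Each fit that leaves out a MycT library leaves 1 tumour in a group, so its calls are not counted here.

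Mrpl12, the protein of the flexible stalk that recruits translation factors, had the most negative change in MycT. It had 76.5 and 111 FPKM in doxycycline tumours, against 700 and 522 FPKM in untreated tumours, a log2 change of -2.70 ± 0.37 (limma adjusted p = 0.0638, and 0.00503 in the joint fit). Mrpl57 followed, with 8.61 and 8.64 FPKM in doxycycline tumours, against 45.2 and 76.7 FPKM in untreated tumours (-2.64 ± 0.39, limma adjusted p = 0.0638). The doxycycline tumours of both genes lay far below the untreated ones. Mrpl3, a core protein of the large subunit whose mutation in humans causes cardiomyopathy, had 20.3 and 17.4 FPKM in doxycycline tumours, against 104 and 132 FPKM in untreated tumours (-2.58 ± 0.32, limma adjusted p = 0.0638). Mrpl53 had 61.7 and 45.1 FPKM in doxycycline tumours, against 339 and 325 FPKM in untreated tumours, and Mrpl28 had 46.4 and 56.1 FPKM in doxycycline tumours, against 292 and 276 FPKM in untreated tumours. Mrps22 had the most negative change of the genes named for the small subunit, with 9.62 and 9.04 FPKM in doxycycline tumours, against 48.4 and 49.9 FPKM in untreated tumours (-2.28 ± 0.30, limma adjusted p = 0.0638). Mrpl15 and Mrpl50 completed the 8 most negative, with changes of -2.12 and -2.14.

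At the other end of the MycT list were Mrps25, Mrpl43, Mrpl39 and Mrpl4, with changes of -0.54, -0.59, -0.65 and -0.69. Mrps25 had 9.57 and 7.73 FPKM in doxycycline tumours, against 13.2 and 12.8 FPKM in untreated tumours (limma adjusted p = 0.30). Its exons overlap those of Nr2c2 on the other strand over 3533 bases, and whether counting used strand is not stated. The 3 genes whose MycT groups overlapped were Mrpl52, Mrps21 and Mrpl4, and in each 1 untreated tumour was low. Mrpl52, for instance, had 305 and 254 FPKM in doxycycline tumours, against 279 and 771 FPKM in untreated tumours.

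**Figure D2:**
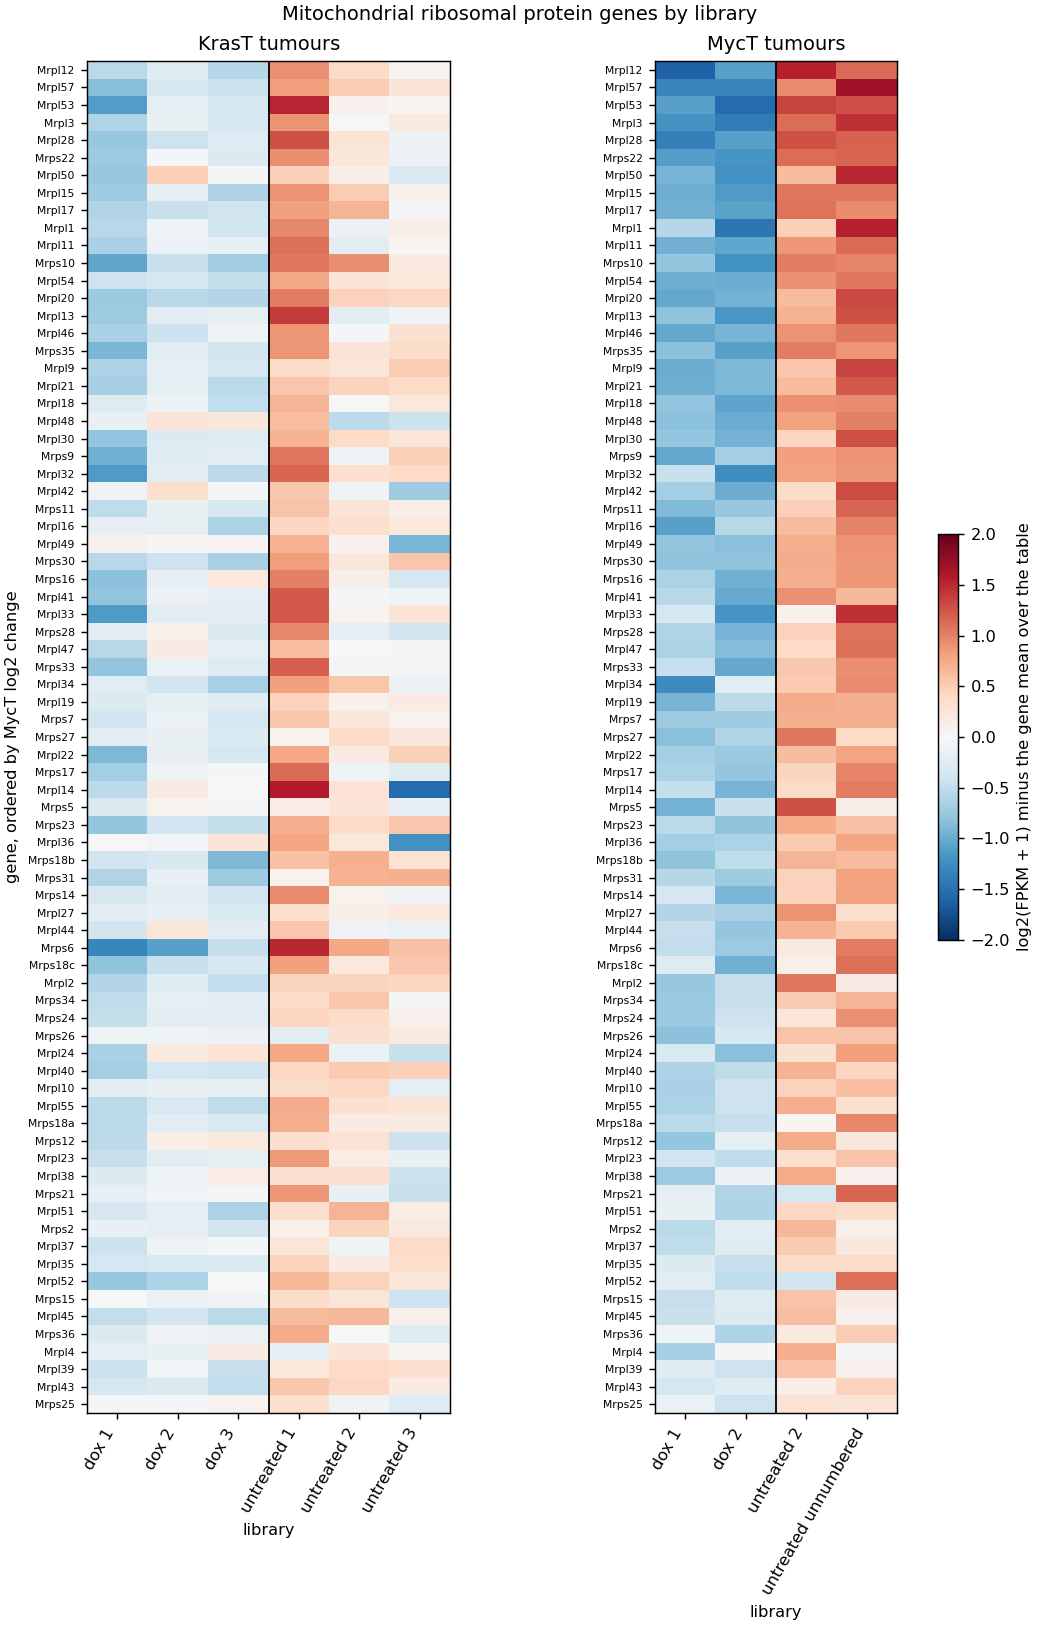
Each row is 1 of the 77 genes, ordered by its MycT change, and each column is 1 library. Colour is log2(FPKM + 1) minus the gene's mean over the libraries of that table, blue below the mean and red above it. The MycT doxycycline columns are blue and the untreated ones red in nearly every row (74 of 77 without overlap), while in KrasT (50 of 77) the first untreated tumour is often the reddest and several rows mix.

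By place in the ribosome, the stalk and its base were taken first. Mrpl10 and Mrpl11, which form the base, had changes of -0.39 ± 0.25 and -0.62 ± 0.39 in KrasT and -1.07 ± 0.31 and -2.01 ± 0.32 in MycT, beside -0.90 ± 0.28 in KrasT for Mrpl12. None of the 3 passed the per-table test, and all 3 were called in the joint fit for MycT. Of the core proteins that contact the decoding site and its entrance in bacteria, Mrps12 had a log2 difference of -0.12 ± 0.33 in KrasT and -0.97 ± 0.39 in MycT, and Mrps5 of -0.16 ± 0.25 and -1.40 ± 0.51. Mrps7, which nucleates the head of the small subunit in bacteria, had -0.57 ± 0.24 and -1.44 ± 0.30. Mrps7 was even within groups, at 31.4 and 32.0 FPKM in doxycycline MycT tumours, against 87.4 and 88.3 FPKM in untreated MycT tumours. Its KrasT values were 30.1, 36.4 and 30.8 FPKM in doxycycline tumours, against 58.6, 46.4 and 41.8 FPKM in untreated tumours, also without overlap.

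Among proteins particular to mitochondrial ribosomes by background knowledge, Mrpl45, which anchors the ribosome to the inner membrane, had 9.71, 10.7 and 9.34 FPKM in doxycycline KrasT tumours, against 22.5, 23.0 and 15.2 FPKM in untreated ones (-0.94 ± 0.26, limma adjusted p = 0.0517). In MycT it had 11.1 and 12.6 FPKM in doxycycline tumours, against 24.2 and 16.4 FPKM in untreated tumours (-0.71 ± 0.36). It was thus 1 of the 4 genes whose change was less negative in MycT. Mrpl44, which has the fold of an RNA endonuclease, had a log2 difference of -0.24 ± 0.30 in KrasT and -1.23 ± 0.32 in MycT, and Mrpl41 of -0.74 ± 0.42 and -1.56 ± 0.35. Mrps27, a pentatricopeptide repeat protein that binds RNA, had -0.44 ± 0.24 and -1.44 ± 0.38. Mrps34, needed in mice for a stable small subunit, had -0.59 ± 0.25 and -1.20 ± 0.31. Apart from Mrpl45, each of these was called in the joint fit for MycT. Outside this set, Mrps36, which despite its name is a subunit of the 2-oxoglutarate dehydrogenase complex, had -0.33 ± 0.31 in KrasT and -0.70 ± 0.36 in MycT and was not called. Mrpl18, of the family that binds the small ribosomal RNA of bacterial large subunits, had -0.58 ± 0.27 and -1.85 ± 0.31 and was called in the joint fit for MycT.

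Mammals have 3 genes of the Mrps18 family, 1 relative each of the same bacterial protein, whose products occupy different places in the ribosome. Mrps18a, found in the large subunit, had 38.1, 48.0 and 45.3 FPKM in doxycycline KrasT tumours, against 93.5, 62.7 and 63.5 FPKM in untreated ones (-0.71 ± 0.25, limma adjusted p = 0.10). Mrps18b had 23.8, 24.9 and 16.2 FPKM in doxycycline tumours, against 47.4, 51.8 and 38.4 FPKM in untreated tumours (-1.06 ± 0.27, limma adjusted p = 0.0389). Mrps18c had 56.7, 72.8 and 79.8 FPKM in doxycycline tumours, against 176, 115 and 146 FPKM in untreated tumours (-1.04 ± 0.26, limma adjusted p = 0.0394). The KrasT groups were apart in all 3 genes. In MycT the changes of Mrps18a, Mrps18b and Mrps18c were -0.99 ± 0.42, -1.31 ± 0.31 and -1.22 ± 0.50, and of these only Mrps18b was called in the joint fit.

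Taken by name, the 48 Mrpl genes had a median change of -0.74 in KrasT and -1.55 in MycT, and the 29 Mrps genes of -0.61 and -1.31. In KrasT, 5 Mrpl genes (10.4%) and 6 Mrps genes (20.7%) were called lower, against 8.25% of all genes. With every library set to the same total the Mrps median in KrasT turned to 0.08, while the other 3 of these medians stayed below 0. The 47 genes of families shared with bacteria had medians of -0.64 in KrasT and -1.45 in MycT, and the other 30 had medians of -0.74 and -1.31. With equal library totals the KrasT median of the 47 turned to 0.03, and that of the other 30 was -0.07. The differences between these medians were not tested.

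The change was more negative in MycT than in KrasT in 73 of the 77 genes. The median difference, MycT minus KrasT, was -0.83, against -0.01 over all 12073 genes tested in both tables. The interaction term of the joint fit called 0 of the 77 at a limma adjusted p under 0.05, where 0.0414% of genes were called with a more negative and 0.199% with a more positive change in MycT. At an unadjusted p under 0.05, 26 of the 77 had a more negative change in MycT (33.8%, against 9.45% of all genes) and 0 a more positive one (10.5% of all genes). The difference for Mrpl48 was -2.03 ± 0.51 (limma adjusted p = 0.0837), for Mrpl50 -1.93 ± 0.60 (limma adjusted p = 0.132) and for Mrpl3 -1.86 ± 0.45 (limma adjusted p = 0.0772). Mrpl48 had 52.5 and 46.2 FPKM in doxycycline MycT tumours, against 163 and 188 FPKM in untreated MycT tumours, beside its overlapping KrasT groups. Mrps6 had the largest difference of the other sign, 0.70 ± 0.56, followed by Mrpl45 (0.23 ± 0.41) and Mrpl52 (0.17 ± 0.61). Mrps6 in MycT had 36.5 and 31.2 FPKM in doxycycline tumours, against 58.9 and 109 FPKM in untreated tumours.

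Both models had 73 genes in common with a negative change, and 49 that were lower without overlap in each model (13.7% of all genes had that pattern). By the joint fit, 16 were called lower in both models, where 3.77% of genes were. Across the 77 genes, the KrasT and MycT changes correlated at a Pearson r of 0.31 and a Spearman rho of 0.36, against a Pearson r of 0.47 across all 12073 genes. Genes are not independent replicates, and the changes of all genes in a model share its libraries.

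**Figure D3:**
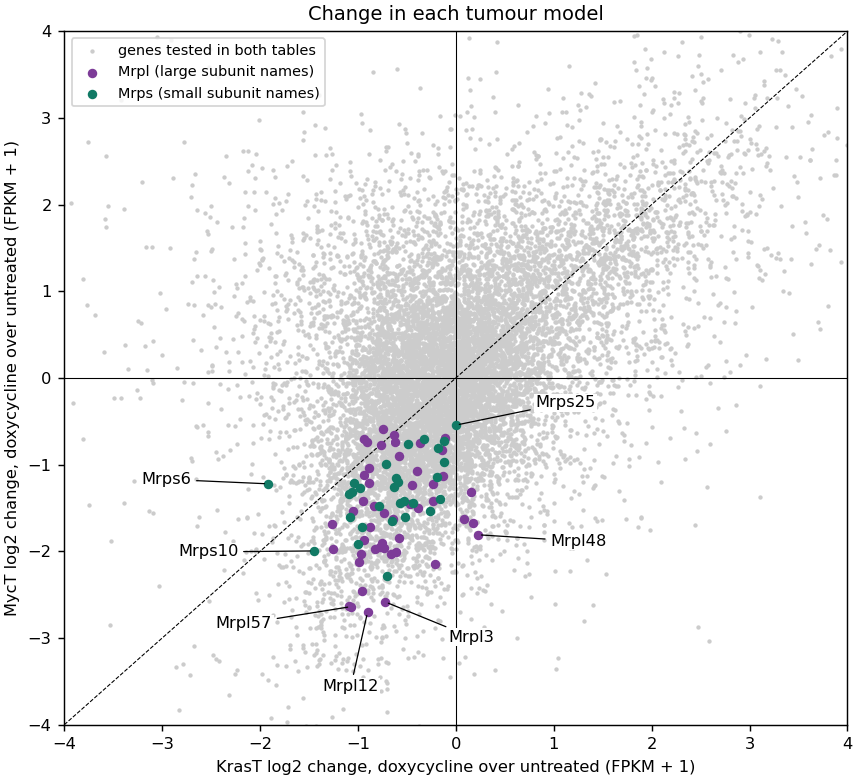
Log2 change in MycT (vertical) against KrasT (horizontal) for the genes tested in both tables. Grey points are all genes (those beyond 4 on either axis are not drawn), purple points Mrpl and green points Mrps genes; the dashed line marks equal change. The coloured points lie below 0 in MycT without exception, and 73 of the 77 lie below the dashed line.

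Other genes of mitochondrial translation were described by the same counts. Of 7 proteins of the same ribosome with other symbols, such as Dap3, 0 were called in KrasT, with a median of -0.55, and their MycT median was -1.27. The 13 translation factors had medians of -0.06 in KrasT and -1.05 in MycT, the 21 genes of ribosome assembly and ribosomal RNA maturation -0.12 and -0.998, the 17 mitochondrial tRNA synthetases -0.03 and -0.94, and the 7 genes of mitochondrial transcription 0.15 and -0.93. With equal library totals the KrasT medians of these 5 lists lay between 0.15 and 0.71, and their MycT medians between -0.04 and 0.11, where the all-gene medians were 0.53 and 1.08. Under quantile normalization the 5 KrasT medians were, in the same order, -0.09, -0.14, -0.17, -0.31 and -0.28. The 77 genes had -0.34 there and all genes -0.09, so the synthetases and transcription genes lay near the 77. The 5 MycT medians were then -0.96, -0.98, -0.93, -1.12 and -1.25, beside -0.99 for the 77. Among the 4 lists outside the ribosome, 2 genes were called lower in KrasT, 1 of the 21 assembly genes (4.76%) and 1 of the 17 synthetases (5.88%), shares below the 8.25% of all genes. They were Grsf1, an RNA-binding protein of mitochondrial RNA granules (-0.97 ± 0.27, limma adjusted p = 0.0498), and Iars2, the isoleucyl-tRNA synthetase (-1.36 ± 0.25, limma adjusted p = 0.0193). The joint fit called lower in MycT 4 of the 7 with other symbols, 4 of the 13 factors, 6 of the 21 assembly genes, 7 of the 17 synthetases and 2 of the 7 transcription genes, where it called 12.3% of all genes.

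The 76 cytosolic ribosomal protein genes had medians of -1.17 in KrasT (35 called lower, 46.1%, and 0 higher) and -2.19 in MycT (73 called lower in the joint fit, 96.1%). As deposited these were more negative than the medians of the 77 genes, and under quantile normalization they were less negative, at -0.26 against -0.34 in KrasT and -0.65 against -0.99 in MycT. The 84 tested subunits of the respiratory chain and ATP synthase had medians of -0.49 in KrasT (4 called lower, 4.76%, and 1 higher) and -1.25 in MycT (39 called lower in the joint fit, 46.4%). Over all genes 8.25% were called lower in KrasT and 12.3% in the joint fit for MycT. With equal library totals the respiratory medians became 0.21 and -0.01, while those of the cytosolic ribosomal proteins were -0.46 and -0.94. Cytosolic ribosomal proteins took 15.6% to 25.6% of total FPKM in doxycycline KrasT tumours against 27.3% to 34.3% in untreated ones, and 21.3% and 21.8% in doxycycline MycT tumours against 46.4% and 48.7% in untreated ones. FPKM is relative within a library, and the part of this shift in the values of the 77 genes was not tested.

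**Figure D4:**
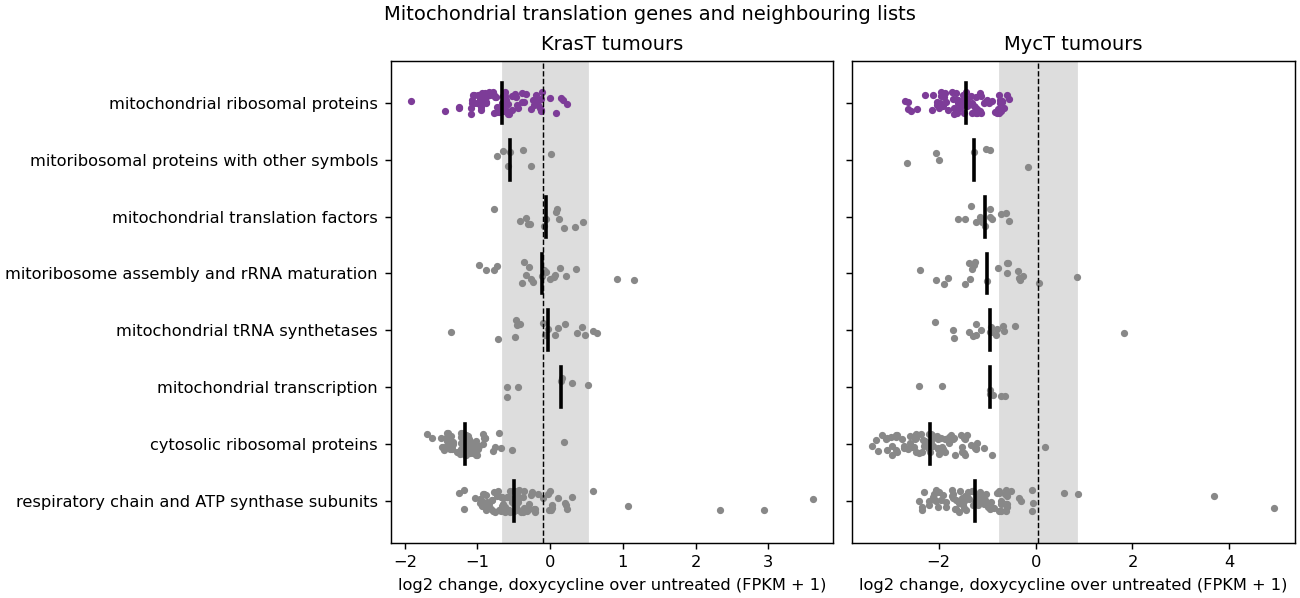
Log2 change of each gene in 8 lists, in KrasT (left) and MycT (right). Points are genes, short vertical bars are list medians, the dashed line is the median of all tested genes and the grey band holds the middle of all tested genes, from the lower to the upper quartile. On the values as deposited the 77 genes have medians of -0.66 and -1.44 (-0.03 and -0.22 with equal library totals), and the factors, assembly genes, synthetases and transcription genes lie near the all-gene median in KrasT and below it in MycT. Under quantile normalization, not drawn, the synthetases (-0.31) and transcription genes (-0.28) lie near the 77 genes (-0.34) in KrasT.

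The sign of many of the 77 changes depended on how libraries were set on 1 scale. Setting each library to the same total moved the all-gene median to 0.53 in KrasT and 1.08 in MycT, and the median of the 77 to -0.03 and -0.22, with 40 and 50 genes negative. Of the 77, 1 and 4 were called lower, where 232 of 12696 and 227 of 12834 of all tested genes were. Under quantile normalization the medians of the 77 were -0.34 in KrasT (56 negative, 1 called lower) and -0.99 in MycT (76 negative, 0 called lower). Over all genes 491 of 12696 were called lower in KrasT and 5 of 12834 in MycT. In KrasT a single call under either scaling is too few to compare the share of the 77 with that over all genes. Scaling by the median ratio over genes above 0 in every library gave -0.62 and -1.47. Relative to the all-gene median under the same scaling, the 77 genes lay at -0.56, -0.56, -0.25 and -0.56 in KrasT (as deposited, median ratio, quantile, equal totals) and at -1.48, -1.48, -0.93 and -1.30 in MycT. The median of the 77 was thus below the all-gene median under all 4 scalings. In the same order, 72, 72, 54 and 67 of the 77 genes were below it in KrasT, and 77, 77, 76 and 77 in MycT. The relative median of the respiratory subunits turned to 0.16 in KrasT under quantile normalization, with 25 of 84 genes below the all-gene median, and that of the cytosolic ribosomal proteins stayed below 0 under all 4, at -0.17 in KrasT under quantile normalization.

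**Figure D5:**
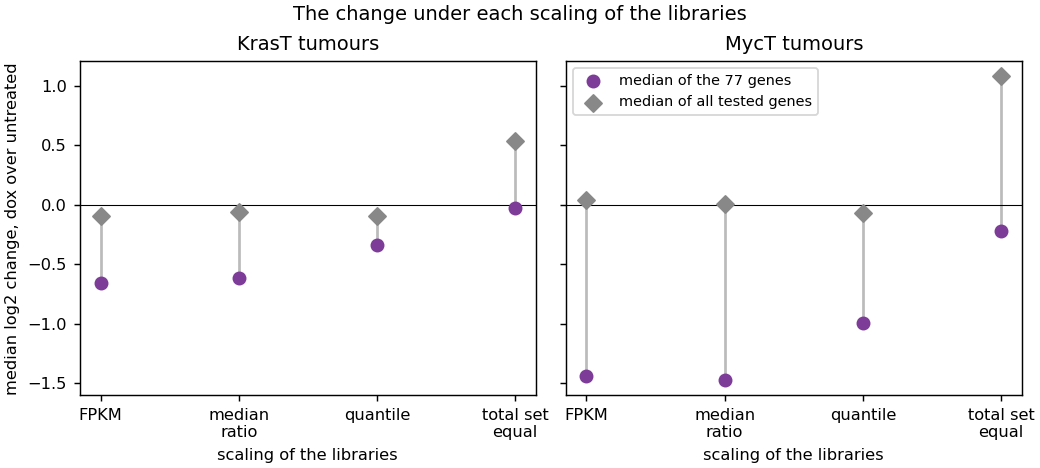
Median log2 change of the 77 genes (purple circles) and of all tested genes (grey diamonds) under 4 scalings of the libraries, in KrasT (left) and MycT (right). The lines join the 2 medians of a scaling. With equal totals both medians shift up, to -0.03 and 0.53 in KrasT and to -0.22 and 1.08 in MycT, and the circle stays below the diamond in every pair.

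Markers of cell types and of proliferation were summed in the same libraries. The 10 fibroblast markers summed to 3947 to 9336 FPKM in doxycycline KrasT tumours against 341 to 888 FPKM in untreated ones, with 7 of 10 called higher, and to 1723 and 2408 FPKM in doxycycline MycT tumours against 39.7 and 475 FPKM in untreated ones. The 8 endothelial markers summed to 81.4 to 175 FPKM in doxycycline KrasT tumours against 24.8 to 40.8 FPKM in untreated ones (6 called higher), and to 66.5 and 129 FPKM in doxycycline MycT tumours against 13.0 and 36.6 FPKM in untreated ones. In KrasT 1 of the 8 went the other way, with a log2 change of -0.95 and groups that did not overlap. The 8 macrophage markers summed to 671 to 3443 FPKM in doxycycline KrasT tumours against 175 to 804 FPKM in untreated ones, and to 1057 and 2424 FPKM in doxycycline MycT tumours against 478 and 771 FPKM in untreated ones. No marker of these 3 lists was at 0 in any library. Acinar markers summed to 143 to 16703 FPKM in doxycycline KrasT tumours against 25.3 to 391.5 FPKM in untreated ones, and to 120.0 and 1718 FPKM in doxycycline MycT tumours against 99.6 and 367 FPKM in untreated ones, with 1 of 9 markers at 0 at most. Islet markers summed to 44.5 to 7529 FPKM in doxycycline KrasT tumours against 0.311 to 70.7 FPKM in untreated ones, and to 22.1 and 694 FPKM in doxycycline MycT tumours against 19.2 and 23.3 FPKM in untreated ones. Adipocyte markers summed to 201 to 3357 FPKM in doxycycline KrasT tumours against 14.8 to 54.2 FPKM in untreated ones, and to 479 and 1691 FPKM in doxycycline MycT tumours against 107 and 129.6 FPKM in untreated ones. Skeletal muscle markers were high in single libraries, with 66.7, 5747 and 309.6 FPKM in doxycycline KrasT tumours against 453, 3.83 and 3.62 FPKM in untreated ones, and 6983 and 9.44 FPKM in doxycycline MycT tumours against 7.46 and 5.31 FPKM in untreated ones, and none of them was called. In untreated libraries up to 5 of 7 islet markers in KrasT and 6 of 7 in MycT were at 0, and up to 2 of 7 adipocyte markers in each model, where 0 of either list were at 0 in doxycycline libraries. The 8 epithelial markers, which the labelled tumour type should carry, were above 0 in all libraries. They summed to 280.4 to 1662 FPKM in doxycycline KrasT tumours against 2374, 18208 and 9069 FPKM in untreated ones (Krt8 and Krt18 called lower). Their median was 14.3 FPKM in the first untreated KrasT tumour, the one that stood apart, and 1699 and 756 FPKM in the other untreated ones. In doxycycline KrasT tumours it was 21.4, 180 and 143 FPKM. In MycT the epithelial markers summed to 868 and 1752 FPKM in doxycycline tumours against 483 and 1268 FPKM in untreated ones. The 10 proliferation markers summed to 17.2 to 30.6 FPKM in doxycycline KrasT tumours against 88.2 to 195 FPKM in untreated ones (5 called lower), and to 28.4 and 108 FPKM in doxycycline MycT tumours against 603 and 798 FPKM in untreated ones. Of the other lists, 2 of 8 macrophage, 2 of 7 islet, 3 of 6 tested adipocyte and 0 of 7 tested acinar markers were called higher in KrasT. Over all genes tested in KrasT, 8.46% were called higher and 8.25% lower. In the per-table MycT fit no marker of these lists was called. The joint fit called higher in MycT 6 of 10 fibroblast, 5 of 8 endothelial and 2 of 7 tested macrophage markers. It also called higher 1 of 6 tested adipocyte and 1 of 8 epithelial markers, and 0 acinar, islet or skeletal muscle markers. All 10 proliferation markers were called lower there. Over all 12073 genes that fit called 979 higher and 12.3% lower. The part of these marker levels in the values of the ribosomal protein genes was not tested.

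By position, on the GENCODE annotation of GRCm38, 18 of the 77 genes (23.4%) have the start of another protein-coding gene within 1000 bases on the opposite strand, pointing away, against 9.92% of 11830 tested protein-coding genes. Of these partners, 17 were tested. Their median change was 0.14 in KrasT, where the 17 ribosomal protein genes beside them had -0.77, and -0.62 in MycT, where those had -1.40. Psma2, a proteasome subunit beside Mrpl32, was the 1 partner called lower in KrasT (-1.42, limma adjusted p = 0.0182). Exons of 13 of the 77 genes overlap those of another gene in the tables, and their values are uncertain to that extent. The 77 genes are short, with a median exonic length of 1363 bases against 3191 bases for the genes tested in KrasT. Across all tested genes the change correlated with length at a Spearman rho of 0.09 in KrasT and 0.17 in MycT, and across the 77 at 0.09 and -0.12.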

How the data were processed

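FPKM values were used as the authors deposited them, in a table of 6 KrasT and a table of 4 MycT libraries. Per the labels' protocols, RNA of frozen tumour tissue was made into Illumina TruSeq libraries. The submitters' processing notes name cutadapt, TopHat and the build mm9. Which program and annotation gave the FPKM values, and whether strand was used, are points not given in the sources used here. FPKM is relative within a library, so a few very abundant genes can shift all others, and read depth is unknown.

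Groups came from the labels, and table columns were assigned by animal number. A single untreated MycT column matched its group only and is called unnumbered. Rows with a date in place of a symbol, 27 of 23951 per table, were left out. The filter asked for 1 FPKM or more in 3 or more KrasT libraries, or in 2 or more MycT libraries. Each table was fitted on log2(FPKM + 1), with a pseudocount of 1, by limma 3.58.1 under R 4.3.3 with trended eBayes. Tests were two-sided, and a gene was called where its Benjamini-Hochberg p, adjusted over all genes tested, was under 0.05. Models were compared by the interaction in a fit of all 10 libraries. The fits were tested on simulated data.

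The rule for the 77 genes uses names alone, but the family was picked for study, and the other lists were chosen, with earlier results of these data known. Genes named are, per model, the 8 of lowest and 4 of highest change and the called ones, the 3 largest differences between models per side, and a set chosen by role. Gene overlaps, lengths and neighbours come from the GENCODE annotation of GRCm38, not from the authors' build. Promoters come from RefSeq tables of GRCm38.p6, and no protein sequence was used. Plots were made in Python 3.11.15 with matplotlib 3.10.9.

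Alternatives were a pseudocount of 0.1, no filter, a mean of 5 FPKM or more, 3 scalings of the libraries, library weights, robust or untrended spread, the joint fit, leaving out each library, and leaving out libraries above 10000 FPKM of Rn45s.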

Additional observations from a re-analysis of the deposited data

How the results depend on the processing

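The 11 calls of KrasT became 1 with equal library totals and 1 under quantile normalization, where 232 and 491 of all 12696 genes were called lower. They became 33 with library weights (with 1 more called higher) and 19 in the joint fit (9 of the 11 among them). Leaving out each library gave 0 to 16. The fit without libraries above 10000 FPKM of Rn45s, with 0, is in KrasT the same as that without the first doxycycline tumour. The share of all genes called with library weights or with a library left out is not given here, for KrasT or for the difference between models. The KrasT median of -0.66 became -0.026 with equal totals and -0.34 under quantile normalization. The 0 calls of MycT became 4 with equal totals, 53 in the joint fit and 0 to 10 when each library was left out, with the 10 in the fit without the unnumbered untreated tumour. The MycT median of -1.44 became -0.22 with equal totals, -0.99 under quantile normalization and -1.66 to -1.30 when each library was left out. The 0 called differences between models became 14 with library weights and 0 to 15 when each library was left out, with the 15 in the fit without the first untreated KrasT tumour. The median difference of -0.83 became -0.30 with equal totals and -0.98 to -0.61 when each library was left out. Fits that leave out a library have fewer samples, both where a count fell and where it rose. The cause of these shifts was not tested, beyond the upward shift of all genes that equal totals make by construction. Equal totals also moved the split of calls over all genes, to 232 lower and 2558 higher in KrasT, against 1047 lower and 1074 higher as deposited, and to 227 lower and 3833 higher in MycT.

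With equal totals the sign turned positive in KrasT for Mrpl10 (0.29), Mrpl11 (0.046), Mrps12 (0.57), Mrps7 (0.12), Mrps5 (0.51), Mrpl44 (0.44), Mrps27 (0.20), Mrps34 (0.10), Mrps36 (0.36) and Mrpl18 (0.11). In MycT it did so for Mrpl4 (0.52), Mrpl39 (0.51), Mrpl43 (0.62), Mrps25 (0.60), Mrpl10 (0.14), Mrps12 (0.25), Mrpl45 (0.46), Mrps34 (0.018), Mrps18a (0.23), Mrps18c (0.022) and Mrps36 (0.52). Under quantile normalization the KrasT sign turned for Mrps12 (0.27), Mrps5 (0.038), Mrpl44 (0.012) and Mrps36 (0.11). With library weights it turned for Mrps12 in KrasT (0.24) and for the difference of Mrpl52 (-0.17). Without the first doxycycline KrasT tumour, the only KrasT library of high Rn45s, it turned for Mrps12 in KrasT (0.11). Leaving out each library gave KrasT changes of -0.37 to 0.11 for Mrps12, -0.35 to 0.46 for Mrpl49, -0.42 to 0.58 for Mrpl36 and -0.14 to 0.48 for Mrpl42, and differences of -0.56 to 0.90 for Mrpl52 and -0.036 to 0.50 for Mrpl45. In KrasT and in MycT the fit without the library of high Rn45s is also a fit that leaves out 1 library, so it enters the next counts again. Over the named genes and all alternatives, 439 KrasT values kept both sign and side of the threshold, 89 lost the call, 12 gained one and 21 changed sign. In MycT, where no named gene was called to begin with, 379 did so and 11 changed sign. The other MycT values gained a call, in part in fits that leave 1 tumour in a group, so they are not counted here. Of the differences, 112 kept both, 5 gained a call and 3 changed sign.

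No paired analysis was possible because every tumour has an animal number of its own in the labels, shared by no tumour of another group. Depth in reads is unknown, and no interval for counting error can be given. With 2 or 3 tumours a group, an adjusted p over the threshold does not show that a gene was unchanged.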
